A study of Mus musculus with 6 samples.

Results

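Heat shock and unfolded protein response genes were described in the basolateral amygdala of stressed and unstressed mice. The set holds 36 genes listed by symbol for their known roles, with no cut on measured values. It was chosen with earlier results of these data known. All 36 were found among the 26264 gene symbols of the count tables, and 34 of them had enough reads to be tested, out of 14739 tested genes in all. They were divided by place and role into 15 genes for folding and quality control in the endoplasmic reticulum (ER), 8 genes for unfolded protein response signalling, 11 cytosolic chaperone genes and 2 mitochondrial chaperone genes. The animals were male mice, and each gave 1 library of ribosomal RNA-depleted total RNA from the dissected basolateral amygdala, a nucleus complex of the temporal lobe involved in fear and anxiety. There were 3 unstressed controls (Ctrl) and 3 mice under Chronic Restrained Stress (CRS), in which animals are repeatedly held immobile. The labels name no strain, age, stress duration or interval before dissection, and no transgene or drug for either group.

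Chaperones bind unfolded stretches of other proteins and help them reach or keep their folded form. In the cytosol, misfolded protein frees the transcription factor HSF1, which binds heat shock elements and induces Hsp70, Hsp40 and small heat shock proteins. In the ER, misfolded protein draws the chaperone BiP away from the sensors IRE1, PERK and ATF6. IRE1 then splices Xbp1 mRNA, PERK phosphorylates eIF2alpha so that ATF4 is translated, and ATF6 is cut to release a transcription factor, and together these induce ER chaperones and, on long activation, CHOP. Neurons carry a heavy load of membrane and secreted protein and express constitutive Hsc70 and Hsp90 at high levels. Splicing, translation and cleavage of the sensors were not measured by gene counts, so the values below are RNA levels.

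Promoter motifs known for these pathways were searched first, and the sites that stand in the ER chaperone promoters are printed here. Of the 36 genes, 30 were matched by symbol in a RefSeq table (build GRCm38.p6) of windows from 250 bases before to 50 bases after each start site. Hyou1, Manf, Atf6, Hspa8, Hsp90aa1 and Hsp90ab1 had no entry. On both strands the windows were searched for the ER stress response element (ERSE: CCAAT, then 9 bases, then CCACG), for its second form (ERSE-II: ATTGG, then 1 base, then CCACG), for TGACGTGG (the core of the XBP1 element), for GAANNTTC (a heat shock element) and for TGATGCAA (an ATF4 composite element). ERSE stood in 7 of the 30 genes, all of them ER folding genes, and in 37 of all 27025 genes of the table (0.137%). ERSE-II stood in 2 of the 30, also ER folding genes, and in 12 of all genes (0.0444%). Motifs and genes were both chosen for known roles in these pathways, so these shares are description only. The matches are written as the motif reads, with the fixed letters in capitals and the spacer in lower case. They are shown because they lie in the class whose 15 genes all had the same highest library, with or without a match, as described with the values.
Hspa5, ERSE, gene strand, chr2:34772025-34772043: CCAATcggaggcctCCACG
Hsp90b1, ERSE, gene strand, chr10:86705638-86705656: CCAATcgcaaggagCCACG
Hsp90b1, ERSE, opposite strand, chr10:86705533-86705551: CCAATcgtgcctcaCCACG
Dnajb11, ERSE-II, gene strand, chr16:22857852-22857862: ATTGGcCCACG
Dnajc3, ERSE, gene strand, chr14:118937827-118937845: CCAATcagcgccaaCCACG
Pdia6, ERSE, gene strand, chr12:17266491-17266509: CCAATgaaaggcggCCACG
Calr, ERSE, opposite strand, chr8:84847075-84847093: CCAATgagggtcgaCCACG
Canx, ERSE, gene strand, chr11:50325800-50325818: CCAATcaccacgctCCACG
Creld2, ERSE, opposite strand, chr15:88819520-88819538: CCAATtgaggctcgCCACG
Herpud1, ERSE-II, gene strand, chr8:94386377-94386387: ATTGGgCCACG

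GAANNTTC, the short pattern used here for a heat shock element, stood in 7 of the 30 genes and in 9.04% of all genes in the table. The 7 were 5 cytosolic genes (Hspa1a, Hspa1b, Hsph1, Dnaja1, Hspb1) and both mitochondrial ones. TGATGCAA stood in Herpud1 and Atf3, and in 1.03% of all genes. TGACGTGG was in none of the 30 windows and in 0.714% of all genes. No matches overlapped within a window. A window of each chaperone class is printed below with its match in capitals, 5′ to 3′ on the strand of the gene, to show where in the promoter the element lies. Hspa5 lies at chr2:34771840-34772139, Hspa1a at chr17:34972107-34972406 (minus strand) and Hspe1 at chr1:55087898-55088197.
Hspa5: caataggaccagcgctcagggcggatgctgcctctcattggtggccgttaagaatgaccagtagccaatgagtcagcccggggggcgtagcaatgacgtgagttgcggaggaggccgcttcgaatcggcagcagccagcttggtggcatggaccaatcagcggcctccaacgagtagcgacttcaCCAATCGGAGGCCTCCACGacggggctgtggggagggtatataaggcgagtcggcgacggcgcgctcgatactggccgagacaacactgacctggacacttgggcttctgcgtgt
Hspa1a: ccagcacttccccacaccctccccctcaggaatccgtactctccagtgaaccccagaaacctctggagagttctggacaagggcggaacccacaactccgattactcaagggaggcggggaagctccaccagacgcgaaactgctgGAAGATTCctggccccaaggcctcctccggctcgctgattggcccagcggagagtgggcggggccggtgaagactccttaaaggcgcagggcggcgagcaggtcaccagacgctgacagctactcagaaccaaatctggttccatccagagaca
Hspe1: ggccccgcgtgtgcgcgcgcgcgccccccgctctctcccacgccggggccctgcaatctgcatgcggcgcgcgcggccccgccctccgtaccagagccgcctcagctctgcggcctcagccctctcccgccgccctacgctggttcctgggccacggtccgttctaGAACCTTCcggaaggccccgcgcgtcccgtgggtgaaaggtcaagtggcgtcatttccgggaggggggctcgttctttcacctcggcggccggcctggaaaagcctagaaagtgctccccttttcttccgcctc

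The exact ERSE match of Hspa5 spans bases -65 to -47 before the start site. Hsp90b1 holds a pair of ERSEs, at -212 to -194 and, on the opposite strand, at -107 to -89. The windows of Hspa1a and Hspa1b, the stress-inducible Hsp70 genes, were identical at 296 of 300 bases and start 12.9 kb apart on chromosome 17. The genes of the mitochondrial chaperonin pair, Hspd1 and Hspe1, are transcribed away from each other, and their windows share 285 bases. The element at -84 to -77 of Hspe1 and the one at -139 to -132 of Hspd1 are the same 8 bases, at chr1:55088064-55088071. The ERSE-II of Dnajb11 lies at 8 to 18, just inside the transcript, and the other ERSE and ERSE-II matches lie before the start site. A match describes letters only: binding was not measured here.

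**Figure D1:**
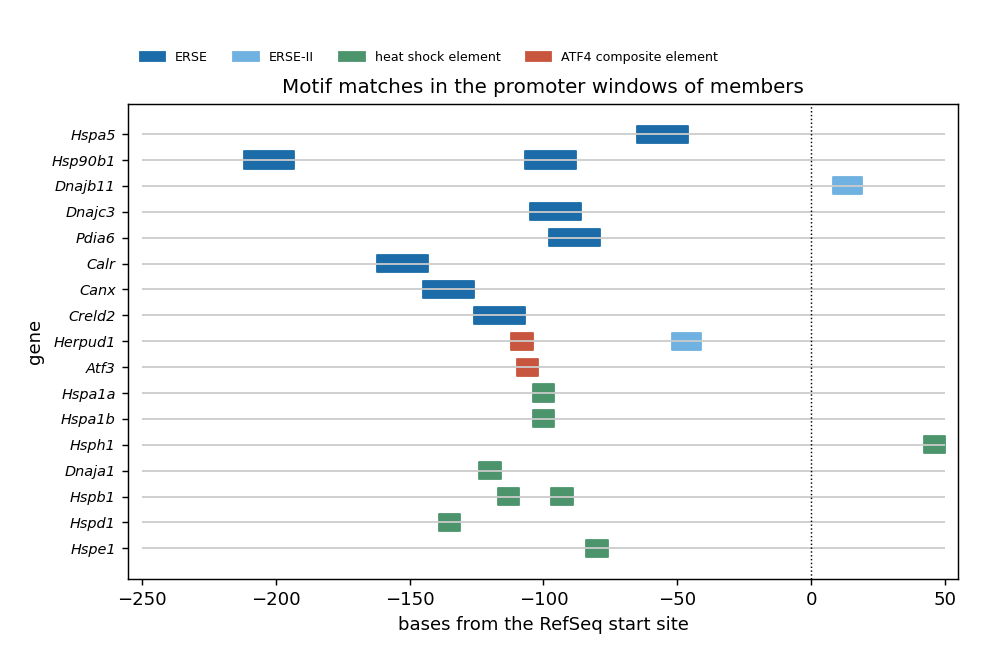
Position of each motif match (coloured bar) in the promoter windows of the 17 genes with a match, in bases from the RefSeq start site (dotted line). ERSE (dark blue) is seen only in ER folding genes, and the heat shock element pattern GAANNTTC (green) only in cytosolic and mitochondrial genes.

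The libraries held between 9859449 and 10233706 counts in genes, of which the 36 genes took 0.547 to 0.660%. All 8 markers of glutamatergic amygdala neurons, among them Slc17a7 and Neurod6, were above 1 CPM (the count scaled to library size) in every library. The dissections differed in neighbouring tissue. The summed level of 12 choroid plexus and ependymal markers was 2406, 4259 and 49.2 CPM for controls 1 to 3 and 17.0, 6125 and 29.4 CPM for the stress libraries, none of the 12 being at 0 in any library. The summed level of 14 striatal and central amygdala markers was 1906, 941 and 1130 CPM (1129.8) in controls and 288, 901 and 1036 CPM under stress, with 1 marker at 0 in a library. In such bulk tissue, fewer cells of a type and less RNA per cell cannot be told apart.

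The levels of the 36 genes spanned a wide range, and the constitutive chaperones stood at the top. Per kb of merged exon length, Hsp90ab1, the constitutive cytosolic Hsp90, was highest, with a mean over the 6 libraries of 465 CPM per kb (lowest library 443, highest 507). Hspa8, the constitutive Hsc70, followed at 142 CPM per kb (132 to 159). Calr and Canx, the ER lectin chaperones that hold glycoproteins during folding, were at 122 (108 to 145) and 119 CPM per kb (109 to 132), and the ranges of both overlapped with those of their neighbours in that order. Hsp90aa1, the inducible Hsp90, was at 98.8 CPM per kb (89.5 to 111) and Hsp90b1, its ER form GRP94, at 86.05 (70.1 to 104). Hspa5, which encodes BiP, was at 61.2 CPM per kb (49.2 to 71.7).

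**Figure D2:**
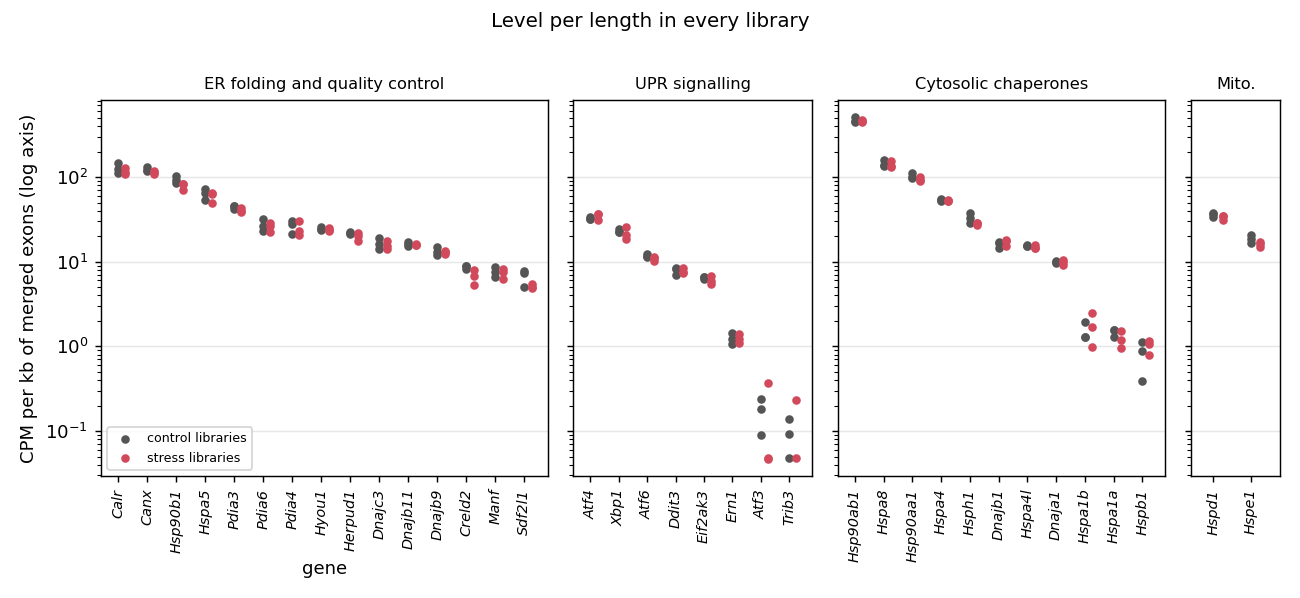
Level of each gene in CPM per kb of merged exon length (log axis), 1 point per library, controls in grey and stress libraries in red, ordered within each class by the control mean. Hsp90ab1 is highest at 465 CPM per kb. Trib3 was at 0 in stress 2 and has no point there.

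The signalling genes lay below the chaperones named above, though Atf4 and Xbp1 exceeded other chaperone genes such as Dnajb11 and Dnajb1. Atf4 and Xbp1 were at 33.4 and 22.4 CPM per kb, Atf6 at 11.4, Eif2ak3 (PERK) at 6.28 and Ern1 (IRE1) at 1.24 CPM per kb. The lowest genes of the cytosolic and signalling classes were known stress-inducible ones. Hspa1b and Hspa1a were at 1.61 and 1.34 CPM per kb and the small heat shock protein gene Hspb1 at 0.906, with ranges over libraries that overlapped between each pair of neighbours. Atf3, an early stress transcription factor, was covered by 4, 2 and 5 reads in the controls and by 1, 1 and 8 in the stress libraries. Trib3, a pseudokinase induced by CHOP, was covered by 3, 2 and 1 reads in the controls and by 1, 0 and 5 in the stress libraries, and the 0 in stress 2 allows up to 3 counts, or 0.302 CPM, by counting error. These 2 genes did not pass the filter and were not tested in the main fit.

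The main comparison asked whether these genes differed between stress and control amygdala. The folding genes of the ER all had a lower mean estimate under stress, by small amounts, and none of the 34 tested genes passed the threshold. With the Benjamini-Hochberg threshold of 0.05 in edgeR, 0 of the 34 tested genes were called, as were 0 of all 14739 (0.00%), and the smallest adjusted p of the 34 was 0.997. An unadjusted p under 0.05 was reached by Hsp90b1 and Hsph1, 2 genes with lower levels under stress (5.88% of 34, against 1.99% of all tested genes), and 0 higher (against 1.30%). The groups did not overlap for 4 genes that were lower, Hsp90b1, Creld2, Atf6 and Hsph1 (11.8%, against 4.48% of all genes), and for 0 that were higher (against 3.80%). Estimates were below 0 for 29 of 34 genes (85.3%), against 51.6% of all genes, with a median log2 fold change of -0.08 against -0.0044. That count rests on control 2, since without it 19 of 34 were below 0, with a median of -0.01. Then 0 of the 34 had an unadjusted p under 0.05, against 466 of all 14899 tested genes. Without control 1, control 2 and stress 2, the 3 libraries rich in choroid plexus markers, 16 of 34 were below 0. Control 3 was then the only control. The genes and the libraries left out were chosen with earlier results of these data known, so these shares are description only.

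**Figure D3:**
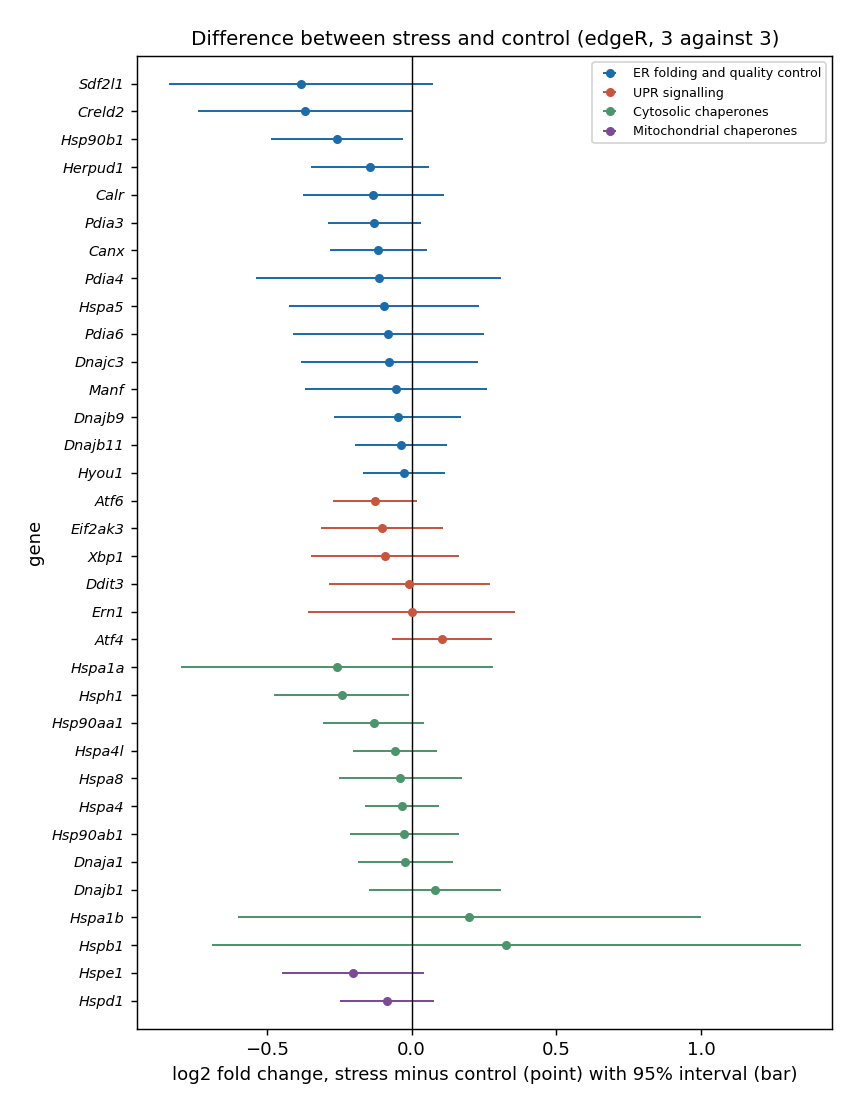
Log2 fold change of the 34 tested genes, stress minus control (points), with 95% intervals (bars), from edgeR's fit of 3 against 3 libraries, by class. All 15 ER folding estimates lie below 0, and the intervals of 2 genes, Hsp90b1 and Hsph1, do not include 0.

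The ER folding genes varied together from library to library. Their summed level was 2317, 2581 and 2131 CPM for controls 1 to 3 and 1970.4, 2221 and 2247 CPM for the stress libraries in the same order. The group means were 2343 ± 226 and 2146 ± 153 CPM (SD, n = 3 per group), a difference of -8.41%, and the groups overlapped. Control 2 was the highest library for 15 of the 15 genes, where it was the highest for 14.9% of all tested genes. This was not particular to the ER class, since control 2 was also highest for 5 of the 11 cytosolic chaperones (45.5%) and both mitochondrial ones. The lowest library was stress 1 in 13 of the ER folding genes, against 23.1% of all genes, and control 3 was the lowest for Dnajb9 and Dnajb11. In 13 of the 15 the range over the 3 controls was larger than the difference between the group means, a share of 86.7% that lies near the 85.7% of all tested genes. From stress 1 to control 2 the genes differed by a median of 1.38-fold, from 1.07- to 1.66-fold. The median log2 fold change of the class was -0.11 and the estimates ran from -0.38 to -0.03. Without control 2 the median was 0.01 and 7 of 15 were below 0; without stress 1 it was -0.07 with 12 of 15. Without the 3 libraries high in choroid plexus markers it was 0.03 with 6 of 15. Stress 1 was also the lowest of the 6 libraries in choroid plexus and in striatal markers, and control 2 was among the 3 high in choroid plexus markers, of which stress 2, the highest, was not the highest for any ER gene. The part of these tissues in the ER values was not tested.

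**Figure D4:**
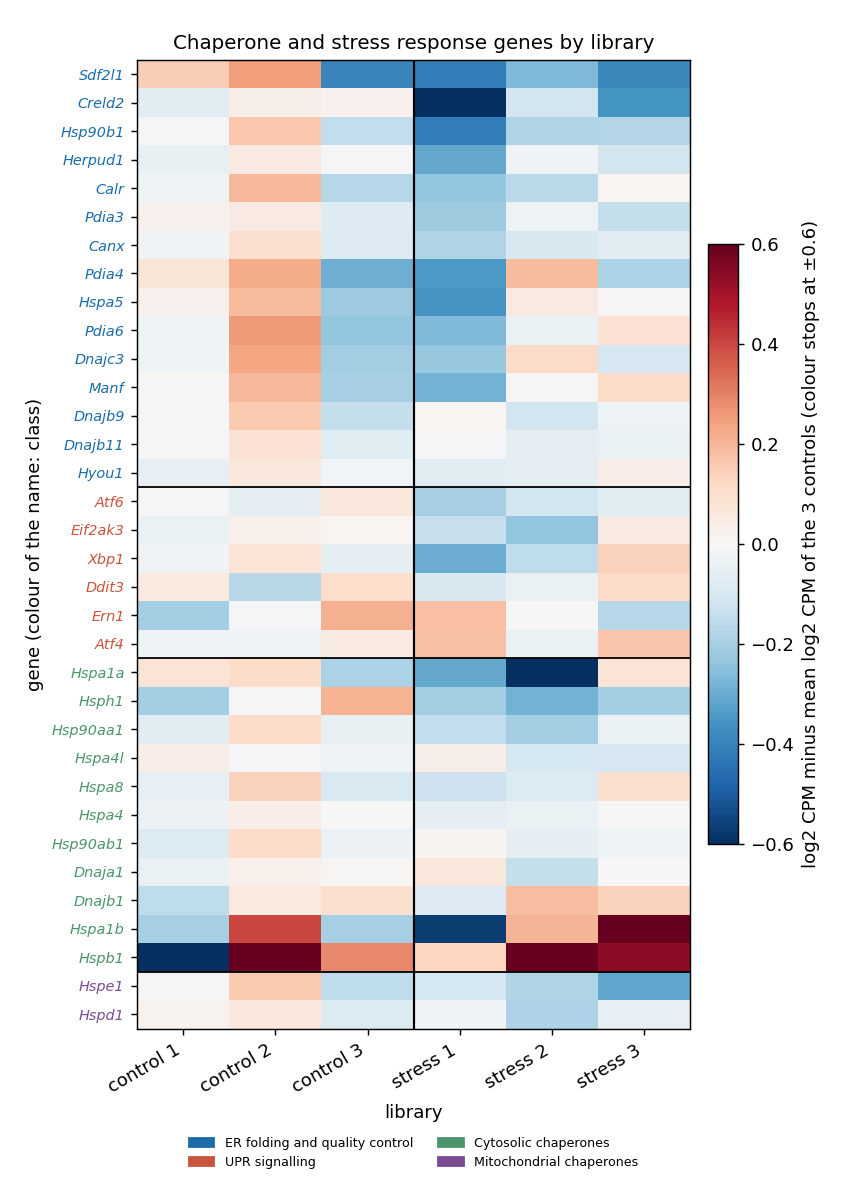
Log2 CPM of each of the 34 tested genes in each library, minus the mean log2 CPM of the 3 controls, red above and blue below, with gene names coloured by class. The column of control 2 is the reddest for all 15 ER folding genes, and that of stress 1 is the bluest for 13 of them.

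Among the large ER chaperones, Hsp90b1 was the one gene of the class with an unadjusted p under 0.05. It was measured at 373, 420.4 and 339.6 CPM in controls 1 to 3 and 282, 332 and 334 CPM in the stress libraries. All stress libraries lay below all controls, with stress 1 lowest and a gap of only a few CPM between control 3 and stress 3. The means were 378 ± 40.6 and 316 ± 29.2 CPM, which gave -0.26 ± 0.10 on the log2 scale (estimate ± SE, interval at 95% confidence -0.49 to -0.03, unadjusted p = 0.0318, edgeR). Hspa5, the BiP gene, stood at 271, 303 and 228 CPM in controls and 208, 276 and 267 CPM under stress. Control 3 was lower than stress 2 and stress 3, so the groups overlapped, at -0.10 ± 0.14 (-0.42 to 0.23), and the estimate turned above 0 without control 2 or without stress 1. Calr and Canx had log2 fold changes of -0.13 ± 0.11 and -0.11 ± 0.07. Hyou1, the large ER Hsp70 relative that exchanges nucleotide on BiP, showed the smallest difference of the class, -0.03 ± 0.06.

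Sdf2l1 and Creld2 had the estimates of the class farthest from 0, on few reads. Creld2, an ER stress-inducible gene for an ER-resident protein, was at 11.3, 12.1 and 12.1 CPM in controls and 7.29, 10.98 and 9.24 CPM under stress. The groups did not overlap, and stress 1 and stress 3 were further from the controls than stress 2. Its log2 fold change was -0.37 ± 0.16 (-0.74 to 0.00, unadjusted p = 0.0514), from 71 to 125 counts per library. Sdf2l1, a partner of the ER DnaJ protein ERdj3, was at 8.05, 8.63 and 5.52 CPM in controls and 5.44, 6.04 and 5.56 CPM under stress. Controls 1 and 2 were high, and control 3 lay among the stress libraries (-0.38 ± 0.20, -0.84 to 0.07). Manf, a secreted ER stress-inducible neurotrophic factor, was at -0.05 ± 0.14. Herpud1, a membrane component of ER-associated degradation with an ERSE-II, was at -0.14 ± 0.09.

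The protein disulfide isomerases and the DnaJ co-chaperones of BiP had small estimates. Pdia3, which works with Calr and Canx on glycoproteins, was at 142, 144 and 132 CPM in controls and 120.2, 136 and 126 CPM under stress. Stress 2 exceeded control 3, so the groups overlapped, at -0.13 ± 0.07 (-0.29 to 0.03). Pdia4 and Pdia6 were at -0.11 ± 0.18 and -0.08 ± 0.14 on the log2 scale, and each had a spread in controls of over 17% (CV 17.6% and 17.1%). Dnajb9, Dnajb11 and Dnajc3, which encode the DnaJ proteins ERdj4, ERdj3 and p58IPK, were at -0.05 ± 0.09, -0.04 ± 0.07 and -0.08 ± 0.13. The 9 ER folding genes with an exact ERSE or ERSE-II match had a median log2 fold change of -0.11 (from -0.37 to -0.04). The 4 that had a window but no such match had one of -0.12 (from -0.38 to -0.05), so the medians lay close to each other. Variants of the motifs were not searched, so genes without an exact match may hold them.

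The sensors and transcription factors of the unfolded protein response had small estimates in both directions. Control 2 was the highest library for 0 of the 6 tested and stress 3 for 3 of them, each against 14.9% of all genes. Stress 1 lay under control 3 in 5 of the 6 (83.3%, against 49% of all genes). Their median log2 fold change was -0.05, with 4 estimates below 0 and 2 above. Summed over the 8 genes, the group means were 324 ± 6.48 and 313 ± 21.4 CPM, control first.

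Atf6, the sensor that is itself a transcription factor precursor, was at 109, 105 and 114 CPM in controls and 95.4, 101 and 104 CPM under stress. All stress libraries lay below the controls, though stress 3 and control 2 almost met (-0.13 ± 0.06, -0.27 to 0.02, unadjusted p = 0.0821). Eif2ak3, the PERK gene, was at 38.1, 40.05 and 39.4 CPM and 35.6, 33.2 and 40.7 CPM. Stress 3 was the highest of all 6 libraries and stress 2 the lowest, at -0.10 ± 0.09 (-0.31 to 0.11). Ern1, the IRE1 gene, was at 8.75, 9.99 and 11.7 CPM and 11.4, 10.1 and 8.94 CPM. The groups covered nearly the same range, with a log2 fold change of 0.00 ± 0.15 (-0.36 to 0.36) whose sign differed between scalings: with library size alone it was -0.02.

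Downstream of the sensors, Xbp1, the target of IRE1, was at 73.7, 79.1 and 72.0 CPM in controls and 61.0, 67.5 and 82.5 CPM under stress. Stress 1 was the lowest and stress 3 the highest library, at -0.09 ± 0.11 (-0.35 to 0.16). Atf4, the factor translated when PERK is active, was at 74.5, 74.8 and 78.5 CPM and 85.6, 73.9 and 85.2 CPM. Stress 1 and stress 3 were above all controls and stress 2 was below them (0.10 ± 0.07, -0.07 to 0.28). Ddit3, which encodes the pro-apoptotic factor CHOP, was at 13.9, 11.9 and 14.4 CPM and 12.5, 12.99 and 14.5 CPM. The groups overlapped throughout, at -0.01 ± 0.12 (-0.29 to 0.27), and DESeq2 put the estimate at 0.0002, above 0.

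Cytosolic chaperones summed to 3301 ± 195 CPM in the control group and to 3178 ± 87.8 CPM in the stress group, with a median log2 fold change of -0.03 over the 11 genes. Of these, 8 estimates were below 0 and 3 above. Hsph1, the Hsp110 that exchanges nucleotide on Hsp70, was at 207, 237 and 276 CPM in controls and 206, 196 and 207 CPM under stress. The groups were separate by a fraction of a CPM between control 1 and stress 3, and control 3 stood far above the rest. Its log2 fold change was -0.24 ± 0.10 (-0.47 to -0.01, unadjusted p = 0.0435, edgeR). Hsp90aa1 was at 388, 437 and 393 CPM and 366, 352 and 395 CPM. Stress 3 exceeded controls 1 and 3, so the groups overlapped, at -0.13 ± 0.08 (-0.30 to 0.04).

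The most abundant cytosolic chaperones had estimates near 0. Hsp90ab1 was at 1328, 1520.3 and 1371 CPM in controls and 1420.2, 1351 and 1377 CPM under stress. All stress libraries fell within the range of the controls (-0.02 ± 0.08, -0.21 to 0.16). Hspa8 was at 598, 683 and 581 CPM and 567, 584 and 662 CPM. Control 2 and stress 3 were high and the rest lay close together, at -0.04 ± 0.09 (-0.25 to 0.17). Hspa4l, an Hsp110 relative, was at 188, 181 and 179 CPM and 187, 169.9 and 170.1 CPM, with stress 1 close to control 1 (-0.06 ± 0.06). Its relative Hspa4 was at -0.03 ± 0.06, and Dnaja1, a DnaJ co-chaperone of Hsc70, at -0.02 ± 0.07.

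The stress-inducible cytosolic genes gave no common direction. Hspa1a was at 4.57, 4.65 and 3.78 CPM in controls and 3.49, 2.82 and 4.57 CPM under stress. Stress 3 exceeded control 3, so the groups overlapped, at -0.26 ± 0.23 (-0.79 to 0.28). Its copy Hspa1b was at 3.58, 5.43 and 3.58 CPM and 2.77, 4.73 and 6.95 CPM. Both the lowest and the highest library were stress libraries, at 0.20 ± 0.35 (-0.60 to 1.00), and without stress 3 the estimate was -0.16. Near-identical copies lose or exchange reads in counting, so the 2 genes are uncertain one by one; summed, the pair averaged 8.53 ± 1.40 CPM in the control group and 8.45 ± 2.74 CPM in the stress group. Dnajb1, the Hsp40 that HSF1 induces, was at 46.2, 53.5 and 54.98 CPM and 48.8, 58.5 and 56.5 CPM. Stress 2 and stress 3 were highest and control 1 lowest (0.08 ± 0.10, -0.15 to 0.31). Hspb1 rested on 4 to 12 counts per library, and its interval of -0.69 to 1.34 was the widest of the 34 tested members.

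The mitochondrial chaperonin genes, which share a promoter region, both had lower estimates. Hspd1, the Hsp60 ring subunit, was at 95.4, 98.3 and 88.8 CPM in controls and 92.6, 82.9 and 90.9 CPM under stress. Stress 1 and stress 3 lay within the range of the controls and stress 2 below it (-0.09 ± 0.07, -0.25 to 0.08). Hspe1, its Hsp10 lid, was at 27.0, 30.3 and 24.4 CPM and 25.3, 24.0 and 21.9 CPM. Stress 1 exceeded control 3, so the groups overlapped, at -0.20 ± 0.11 (-0.45 to 0.04). Control 2 was the highest library for both genes, as for the ER folding genes.

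Set against the cytosolic chaperones of the same library, the ER folding genes took a share that varied with the library. Their summed CPM was 73.8, 73.4 and 65.6% of the cytosolic sum in the controls and 62.0, 71.9 and 68.8% in the stress libraries. The 3 libraries with the highest shares were those rich in choroid plexus markers, control 1, control 2 and stress 2, and the groups overlapped (70.9 ± 4.61% and 67.6 ± 5.10%). The BiP gene Hspa5 was at 45.2, 44.4 and 39.3% of Hspa8 in controls and 36.7, 47.2 and 40.3% under stress, again with the same 3 libraries highest. Control 1, control 2 and stress 2 were also highest in 12 oligodendrocyte markers, which summed to 3682, 2552 and 2615 CPM there. Control 3, stress 1 and stress 3 were at 2326, 1821 and 2054 CPM. The 8 glutamatergic neuron markers were lowest in the first 3 libraries, at 1957, 2409 and 2454 CPM, against 2769, 2782 and 2773 CPM. The summed levels of the striatal, astrocyte, endothelial, meningeal fibroblast, microglia and blood marker lists did not part the libraries in this way. Whether choroid plexus or any of these cell types carries the difference in shares was not tested. The mitochondrial genes were at 3.68 ± 0.209% and 3.54 ± 0.144% of the cytosolic sum.

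**Figure D5:**
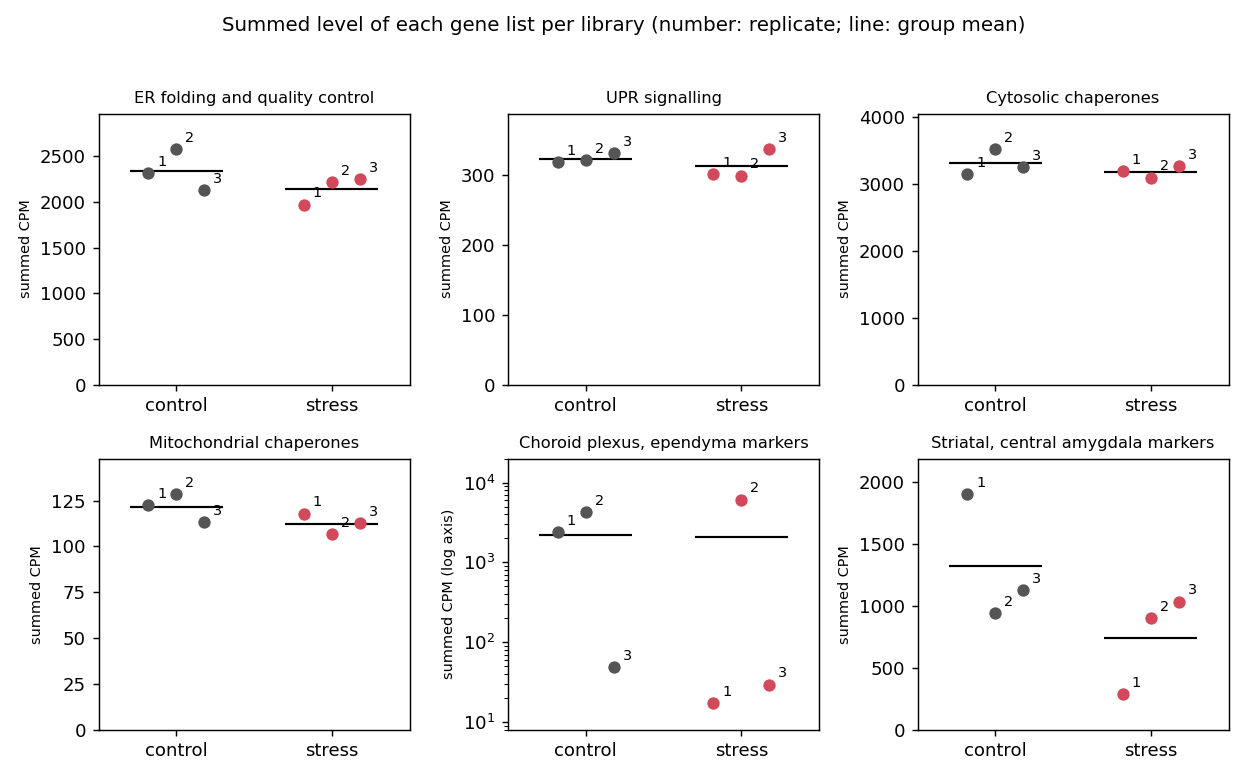
Summed CPM of each class and of the 2 marker lists in each library (points, numbered by replicate), with the group mean as a line. The axis starts at 0 except for the choroid plexus markers, which have a log axis. ER folding runs from 1970.4 CPM in stress 1 to 2581 CPM in control 2, and the groups overlap in every panel.

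Other genes of these pathways were taken from 5 lists of 112 genes, of which 111 were tested. Of these, 0 passed the adjusted threshold, and 2 were lower (1.80%) and 1 higher (0.901%) at an unadjusted p under 0.05, near the 1.99% and 1.30% of all genes. Estimates were below 0 for 75 of the 111 (67.6%, against 51.6% of all genes). The groups did not overlap for 8 that were lower (7.21%, against 4.48%) and for 1 that was higher (0.901%, against 3.80%). Among 36 further genes for ER folding and ER-associated degradation, 0 had an unadjusted p under 0.05, and the median log2 fold change was -0.02. The smallest p were those of the disulfide isomerase relative Pdia5 (-0.48 ± 0.25) and the ER lectin Erlec1 (0.14 ± 0.07). Of 25 tested genes of the wider unfolded protein and integrated stress response (median -0.04), 16 estimates were below 0 and 9 above. Among the 5 lists, only the summed level of this one did not overlap between the groups. It ran from 905 to 927 CPM in controls and from 879 to 902 CPM under stress, a difference of -2.35% between the means. Gene by gene, the groups did not overlap for 3 that were lower and for 0 that were higher. The 1 gene of the 25 with an unadjusted p under 0.05 was Ddit4, an mTORC1 inhibitor that ATF4 and glucocorticoids induce. It was at 18.6, 16.8 and 15.4 CPM in controls and 17.2, 25.2 and 23.6 CPM under stress. Stress 2 and stress 3 were above all controls and stress 1 was among them (0.38 ± 0.15, unadjusted p = 0.0381, edgeR). Psat1, a serine synthesis enzyme under ATF4 and 1 of the 3 lower genes with separate groups, was at -0.20 ± 0.09.

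In the heat shock list, 32 genes of HSF1, co-chaperones and small heat shock proteins had a median of -0.05. At an unadjusted p under 0.05, 2 were lower (6.25%, against 1.99% of all genes) and 0 higher (against 1.30%). The groups did not overlap for 4 that were lower (12.5%, against 4.48%) and for 0 that were higher (against 3.80%). Bag5, a nucleotide exchange factor of Hsp70, was at 40.8, 39.2 and 41.3 CPM in controls and 35.0, 33.5 and 36.5 CPM under stress. The groups were separate (-0.21 ± 0.07, unadjusted p = 0.0210, edgeR). Cryab, the small heat shock protein alphaB-crystallin, which oligodendrocytes and astrocytes also express, was at 37.9, 40.9 and 31.99 CPM in controls and 28.5, 34.2 and 23.1 CPM under stress. Stress 2 exceeded control 3, so the groups overlapped. The log2 fold change was -0.37 ± 0.15 (unadjusted p = 0.0460, edgeR), beside summed levels of 12 oligodendrocyte markers of 2326 to 3682 CPM in controls and 1821 to 2615 CPM under stress. Whether those cells carry the Cryab value was not tested. The 8 subunits of the cytosolic chaperonin TRiC had a median of -0.0042, with Cct5 and Cct3 at -0.06 ± 0.08 and -0.05 ± 0.08. The 10 other mitochondrial chaperone and protease genes had a median of -0.01, with Grpel1 at 0.11 ± 0.09 and Clpp at -0.09 ± 0.08. Control 2 had the highest summed level of the further ER, heat shock and TRiC lists and, narrowly, of the mitochondrial one. For the wider signalling list it was control 1.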

How the data were processed

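Total RNA of the basolateral amygdala of 6 male mice was sequenced after ribosomal RNA depletion, per the labels' protocols. Each deposited file gives 1 mouse's unnormalized read counts by gene symbol, as made by the authors. Per the submitters' processing notes, the tools were STAR 2.7.7a, edgeR 3.42.4, FastQC 0.12.1 and HTSeq 0.13.5, with build mm39. The kit keeps strand. What each tool did, the annotation and the counting's strand setting were not given in the sources used here. Reads of overlapping or antisense genes may therefore be mixed. Reads assigned to no gene (53.0 to 57.4%) were left out of library sizes.

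Tests ran under R 4.3.3, with edgeR 4.0.16 as the main tool (filterByExpr, minimum count 10, minimum total 15; TMM factors 0.983 to 1.02; robust quasi-likelihood F test; Benjamini-Hochberg over 14739 genes, threshold 0.05), limma 3.58.1 and DESeq2 1.42.0. The script was tested on simulated data. CPM use TMM-scaled library sizes; each SE is the size of the estimate divided by the root of F. Levels per kb use merged exon lengths of all isoforms in GENCODE M21, an annotation of another build than the counts. The labels call the libraries biological replicates, and no pair agreed within sampling noise (lowest chi-square per gene 2.82). Genes were given values in every library if they were among the 4 smallest p of their class or landmarks of the pathway; from each further list the 2 smallest p were named. Single-library values were added for genes with an unadjusted p under 0.05. The members, lists and doubted libraries were chosen with earlier results of these data known. Alternatives covered scaling, filtering, test, the replicate number as a block and leaving out libraries.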

Additional observations from a re-analysis of the deposited data

How the results depend on the processing

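For 0 of the 34 genes did an adjusted p fall under 0.05 in any of the 15 alternatives, and the same held for the 111 further genes. Over all genes DESeq2 called 2, and leaving out 1 replicate gave 0 to 1 (1 without control 3). Genes lower at an unadjusted p under 0.05 numbered 1 with DESeq2-type size factors, 1 without control 1 and stress 1, and 0 to 3 leaving out 1 replicate. Genes higher numbered 0 to 1. Over all tested genes, lower and higher together, that p was reached by 490 of 14739, 200 of 14818 and 228 to 963 genes. Without control 1, control 2 and stress 2, control 3 is the only control and the spread comes from 2 stress libraries. Counts from that fit say nothing about stability. Lower estimates numbered 19 to 30 of 34 and 7 to 15 of 15 ER genes leaving out 1 replicate. Leaving out 1 replicate, the signalling median ran from -0.11 to -0.012. The replicate number as a block gave 29 lower estimates, 3 of them with an unadjusted p under 0.05. In that fit 407 of all 14739 genes, lower and higher together, had such a p. The ER median was -0.11 there, and no adjusted call changed. Same-numbered libraries correlated at -0.32, 0.53 and 0.28, and differently numbered ones at -0.64 to 0.48. The values were centred within each group of 3, which ties them to each other, so they cannot decide whether the numbers pair the mice.

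Without control 1, control 2 and stress 2, 16 of 34 and 6 of 15 ER estimates were lower, and the medians were 0.030 (ER) and -0.0012 (mitochondrial). Estimates turned there for Hspa5 (0.059), Hyou1 (0.0053), Dnajb9 (0.14), Dnajb11 (0.048), Dnajc3 (0.048), Pdia4 (0.030), Pdia6 (0.16), Calr (0.070), Manf (0.13), Ern1 (-0.20), Hspa8 (0.083), Hspa1a (0.095), Hspa4l (0.00039), Hsp90ab1 (0.030), Dnaja1 (0.028), Dnajb1 (-0.060), Hspd1 (0.049), Cct5 (0.075) and Cct3 (0.12). Without control 1 and stress 1 they turned for Hspa5 (0.030), Pdia4 (0.025), Manf (0.051), Ern1 (-0.19), Ddit3 (0.063) and Cct3 (0.0035). Ern1 was at -0.015 with library size alone and Ddit3 at 0.00020 with DESeq2. The causes were not tested.

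Leaving out 1 replicate turned these, with their ranges: Hspa5 (-0.20 to 0.021), Hyou1 (-0.059 to 0.016), Dnajb9 (-0.12 to 0.043), Dnajb11 (-0.071 to 0.015), Dnajc3 (-0.17 to 0.059), Pdia4 (-0.28 to 0.010), Pdia6 (-0.19 to 0.067), Manf (-0.15 to 0.057), Hsp90ab1 (-0.062 to 0.043), Cct5 (-0.12 to 0.018), Hspa8 (-0.11 to 0.044) and Dnaja1 (-0.068 to 0.040), each of these without control 2; Xbp1 (-0.22 to 0.00094) without stress 1; Hspa1b (-0.16 to 0.48) without stress 3; and Ddit3 (-0.078 to 0.047) and Ern1 (-0.091 to 0.11) without several. Several genes turned in more than 1 of these fits: 7 turned without stress 1, Hspa5 and Xbp1 among them, and 13 without control 2. At 9859449 to 10233706 counts per library, Atf3 and Trib3 did not pass the filter of the main fit. Without the filter all 8 signalling genes were tested, with a smallest adjusted p of 0.967 (edgeR).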
